A study of Mus musculus with 69 samples.

Results

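The hearts described here came from the air control arm of a study of cyanide exposure in adult male CD-1 mice that were not anesthetized. They were chosen by the word Air in the array titles, which takes 16 of the 69 arrays. These mice breathed air without cyanide in a nose-only exposure, and 4 hearts each were taken 1, 2, 4 and 24 h afterwards. The only other group used is the second set of cyanide-free hearts, from mice injected under the skin with saline, with 4 arrays at 1 h, 3 at 4 h and 4 at 24 h. The other arrays hold hearts of mice given HCN by inhalation, hearts of mice given KCN by injection, and saline hearts at 2 and 8 h. Each title names a biological replicate and each array is one mouse's heart in the labels. CD-1 is an outbred stock, and no group holds hearts of unexposed mice, so the 1 h hearts are the earliest point and not a baseline. Clock time of the collections, the length of the exposure and any fasting are not stated in the sources used here, so that time since exposure, time of day and feeding cannot be told apart.

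Handling and confinement are known to raise the stress hormone corticosterone in mice. Corticosterone enters cells and binds the glucocorticoid receptor, encoded by Nr3c1, which moves to the nucleus, binds a short inverted repeat in DNA and raises transcription of genes such as Fkbp5, Tsc22d3, Per1 and Sgk1. In the heart the same genes also follow the daily peak of corticosterone and feeding. The molecular clock, in which Arntl and Clock drive Per and Cry genes that repress them, runs in heart muscle cells and is tied to the time of day.

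RNA was measured on Affymetrix HT MG-430 PM arrays, and all levels below are deposited log2 signals. A gene is represented by its brightest probe set, a set of probes that together read one transcript. Levels are compared between arrays and never between genes. Of 26773 probe sets bright enough to be tested, 19929 carried 1 gene symbol, for 12436 genes. A gene is called at an adjusted p under 0.05 in limma. The ventricular cardiomyocyte markers had a summed level of 16.12 to 16.26 in every array, so the tissue was heart as labelled. Markers of other tissues varied by array. The thymocyte gene Rag1 was at 8.02 in replicate 1 at 1 h and at 9.87 in replicate 1 at 2 h, against 2.32 to 4.22 in the other 14 arrays. The airway gene Scgb1a1 was at 5.33 in replicate 4 at 1 h, against 11.76 to 12.29 in the other 1 h arrays. It was at 2.67 in replicate 1 at 2 h, against 11.23 to 11.86, and at 3.10 in replicate 1 at 24 h, against 11.79 to 12.17. Most arrays of these times thus held airway RNA. The median change of 5 lung epithelium markers was 2.15 at 4 h against 2 h and −2.01 at 24 h against 4 h, with none called. The actin 3'/5' ratio, a measure of RNA integrity on the log2 scale, averaged 0.503 ± 0.173 in the 1 h hearts, 0.452 ± 0.143 in the 2 h hearts, 0.400 ± 0.0382 in the 4 h hearts and 0.386 ± 0.0447 in the 24 h hearts (SD, n = 4 each; lowest two-sided exact permutation p = 0.371). The Gapdh 3'/5' ratio moved with the 2 h hearts, averaging 0.0246 ± 0.103 in the 1 h hearts, −0.153 ± 0.0209 in the 2 h hearts, −0.00772 ± 0.065 in the 4 h hearts and −0.0291 ± 0.0473 in the 24 h hearts. The 2 h arrays overlapped none of the others (exact permutation p = 0.0286 against each time, the smallest that 4 against 4 can give, and 0.0572 after adjustment). Its part in the 2 h results was not tested.

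The cyanide-free hearts changed with time. The F test over the 4 times called 1937 of 12436 genes (15.6%). Between neighbouring times the counts were smaller: at 2 h against 1 h 0.121% of genes rose and 0.45% fell, at 4 h against 2 h 0.683% rose and 1.59% fell, and at 24 h against 4 h 0.667% rose and 0.571% fell. Set against 1 h, 2.36% rose and 5.43% fell at 4 h, and 5.02% rose and 7.61% fell at 24 h. The last 2 comparisons share their 1 h arrays. Among the genes the F test called, the mean was highest at 1 h in 789 (40.7%), at 2 h in 378 (19.5%), at 4 h in 235 (12.1%) and at 24 h in 535 (27.6%). By their means, 347 of the same genes fell at every step (17.9%) and 211 rose at every step (10.9%). The number of calls between neighbouring times depended on single arrays. The counts below are totals of each refit, and were not matched to the probe sets called with all arrays. At 2 h against 1 h the count was 123 probe sets with all arrays. It was 30 without replicate 3 at 2 h and 45 without replicate 4 at 1 h. It was 53 without replicate 1 at 2 h and 56 without replicate 2 at 1 h. It was 79 without replicate 2 at 2 h and 80 without replicate 3 at 1 h. At 4 h against 2 h the count was 547 with all arrays. It was 277 to 342 without replicate 3 at 2 h or without any single 4 h array. At 24 h against 4 h the count was 331 with all arrays. It was 130 to 201 without replicate 1 or 2 at 4 h or replicate 1, 3 or 4 at 24 h. At 4 h against 1 h the count was 2359 with all arrays. It was 1348 without replicate 4 at 1 h and 1500 without replicate 2 at 4 h. At 24 h against 1 h it was 3942 with all arrays and 2618 without replicate 2 at 1 h.

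Genes that respond to glucocorticoids fell after 1 h. Of 23 measured members, 7 fell and none rose at 2 h against 1 h, 15 fell at 4 h against 1 h and 19 fell at 24 h against 1 h, with none rising at either. Over all genes the shares that fell were 0.45%, 5.43% and 7.61%. The list was chosen with earlier results of these data known, so the counts are descriptions. The median change of the 23 was −0.97 at 4 h and −1.20 at 24 h, against −0.04 and −0.05 over all genes. In bulk tissue, fewer cells of a type and less RNA per cell cannot be told apart. The 7 that fell by 2 h were Ddit4, Errfi1, Cebpd, Cebpb, Sgk1, Tsc22d3 and Nfkbia, and only Ddit4, Cebpd and Nfkbia kept that call in every alternative fit. Errfi1 lost it without replicate 2 or 4 at 1 h or replicate 1 or 3 at 2 h, as did Cebpb. Tsc22d3 lost it without any array of 2 h except replicate 4 and without replicate 2, 3 or 4 at 1 h, and Sgk1 without replicate 4 at 1 h or replicate 1 at 2 h.

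**Figure D1:**
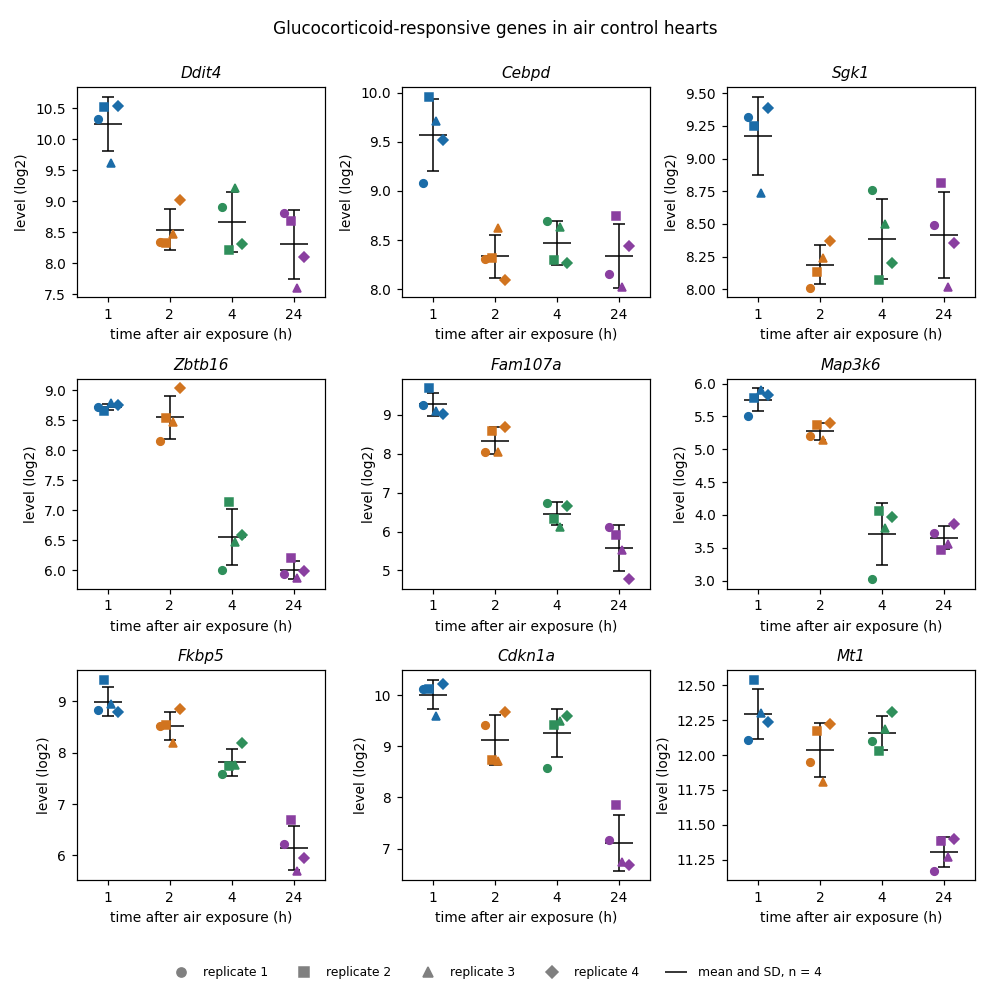
Deposited log2 level of 9 glucocorticoid-responsive genes in each air heart at 1, 2, 4 and 24 h, with each point an array and the bar the mean with its SD (n = 4). Ddit4, Cebpd and Sgk1 were lower by 2 h, Zbtb16, Fam107a and Map3k6 mostly between 2 and 4 h, and Fkbp5, Cdkn1a and Mt1 mostly between 4 and 24 h.

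The genes of this group fell at different steps. Ddit4, an inhibitor of the growth kinase mTORC1 that glucocorticoids induce, was at 10.33, 10.52, 9.61 and 10.54 at 1 h, at 8.33, 8.33, 8.48 and 9.02 at 2 h, at 8.90, 8.21, 9.22 and 8.31 at 4 h and at 8.82, 8.69, 7.60 and 8.10 at 24 h. Every later array lay below every 1 h array, while the 3 later times overlapped. Its change at 2 h against 1 h was −1.71 ± 0.27 (SE), a 3.27-fold fall (adjusted p = 0.000302). Cebpd, a C/EBP transcription factor of acute inflammation, was at 9.08, 9.96, 9.72 and 9.52 at 1 h and at 8.02 to 8.75 in the 12 later arrays. It fell 2.35-fold at 2 h against 1 h (−1.23 ± 0.22, adjusted p = 0.00141), and no later array reached the lowest 1 h array. Sgk1, a kinase that controls ion channels, fell by 0.99 at 2 h against 1 h (adjusted p = 0.0119). Its 2 h arrays, at 8.01 to 8.37, lay below its 1 h arrays, at 8.74 to 9.39, while the 4 and 24 h arrays overlapped both.

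A later step took Zbtb16, Fam107a, Map3k6 and Klf15 down between 2 and 4 h. Zbtb16, a zinc finger repressor, was at 8.71, 8.66, 8.78 and 8.74 at 1 h, at 8.15, 8.53, 8.48 and 9.03 at 2 h, at 6.01, 7.15, 6.47 and 6.59 at 4 h and at 5.95, 6.22, 5.87 and 5.98 at 24 h. The 1 and 2 h hearts overlapped and the 4 and 24 h hearts overlapped, with a gap between these pairs. Zbtb16 fell 3.98-fold at 4 h against 2 h (−1.99 ± 0.31, adjusted p = 0.000117). Fam107a, an actin-binding protein induced by stress and glucocorticoids, was at 9.26, 9.69, 9.11 and 9.04 at 1 h, at 8.04, 8.58, 8.05 and 8.69 at 2 h, at 6.75, 6.33, 6.12 and 6.65 at 4 h and at 6.12, 5.90, 5.52 and 4.78 at 24 h. No 2 neighbouring times overlapped, although the highest 24 h and the lowest 4 h array were both at 6.12 after rounding. Its fall at 24 h against 1 h was 13.0-fold (−3.70 ± 0.34, adjusted p = 3.23e-11). Map3k6, a stress-activated kinase, was 2.96-fold lower at 4 h than at 2 h (−1.56 ± 0.27, adjusted p = 0.000343). Its levels were 3.02 to 4.06 in the 4 h arrays and 5.14 to 5.40 in the 2 h arrays. The lowest of these lay below the brightness limit for testing (3.23), so the size of the fall is imprecise. Klf15, a regulator of heart metabolism, fell by 0.75 in the same step (adjusted p = 0.0289), a call lost without replicate 2, 3 or 4 at 2 h or replicate 3 or 4 at 4 h. Against 1 h its falls of 1.30 at 4 h and 1.22 at 24 h kept their calls in every alternative.

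The last group fell mostly between 4 and 24 h. Fkbp5, a chaperone that dampens the glucocorticoid receptor and is one of its best known targets, was at 8.83, 9.42, 8.94 and 8.79 at 1 h, at 8.52, 8.55, 8.18 and 8.85 at 2 h, at 7.58, 7.73, 7.75 and 8.18 at 4 h and at 6.22, 6.69, 5.70 and 5.94 at 24 h. The 24 h hearts lay below all others. The earlier neighbouring times overlapped, but every 4 h array lay below every 1 h array. Fkbp5 had thus already fallen 2.28-fold at 4 h against 1 h (−1.19, adjusted p = 0.00513). Fkbp5 fell 3.19-fold at 24 h against 4 h (−1.67 ± 0.29, adjusted p = 0.000487) and 7.26-fold at 24 h against 1 h (adjusted p = 1.93e-10). Cdkn1a, which encodes the cell cycle inhibitor p21, was at 10.12, 10.12, 9.58 and 10.22 at 1 h, at 9.43, 8.73, 8.70 and 9.66 at 2 h, at 8.57, 9.41, 9.49 and 9.58 at 4 h and at 7.17, 7.86, 6.74 and 6.68 at 24 h. Only the 24 h hearts stood apart, and the fall against 4 h was 4.44-fold (−2.15 ± 0.32, adjusted p = 5.22e-05). Cdkn1a is also a p53 target, and of 15 measured p53 targets 2 rose and 3 fell at 24 h against 1 h, where 5.02% of all genes rose and 7.61% fell. Mt1, a metal-binding metallothionein, was at 11.17, 11.38, 11.27 and 11.40 at 24 h and at 11.81 to 12.54 in the 12 earlier arrays. Its fall at 24 h against 4 h was 0.85 (adjusted p = 3.94e-05), but its other probe set changed by −0.04 in that comparison and by −0.54 at 24 h against 1 h.

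Pdk4, which holds back glucose oxidation, was at 9.60, 10.59, 9.98 and 9.99 at 24 h and at 10.75, 12.28, 11.92 and 11.12 at 1 h. The groups did not overlap and the fall was 2.78-fold (−1.48 ± 0.33, adjusted p = 0.00137). Nr3c1 itself was at 8.40 to 8.58 at 24 h and at 8.03 to 8.28 at 1 h. Its change of 0.32 did not pass the test (adjusted p = 0.0631), and the median change of its other 3 probe sets was 1.28. Dusp1, a phosphatase, changed by −0.32 at 24 h against 1 h (adjusted p = 0.401) and Angptl4, an inhibitor of lipoprotein lipase, by −0.47 (adjusted p = 0.547). Together with Hif3a (−0.53, adjusted p = 0.169) and Nr3c1 these are the 4 measured members with no call at 24 h against 1 h. Mt2 was not among the probe sets tested.

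**Figure D2:**
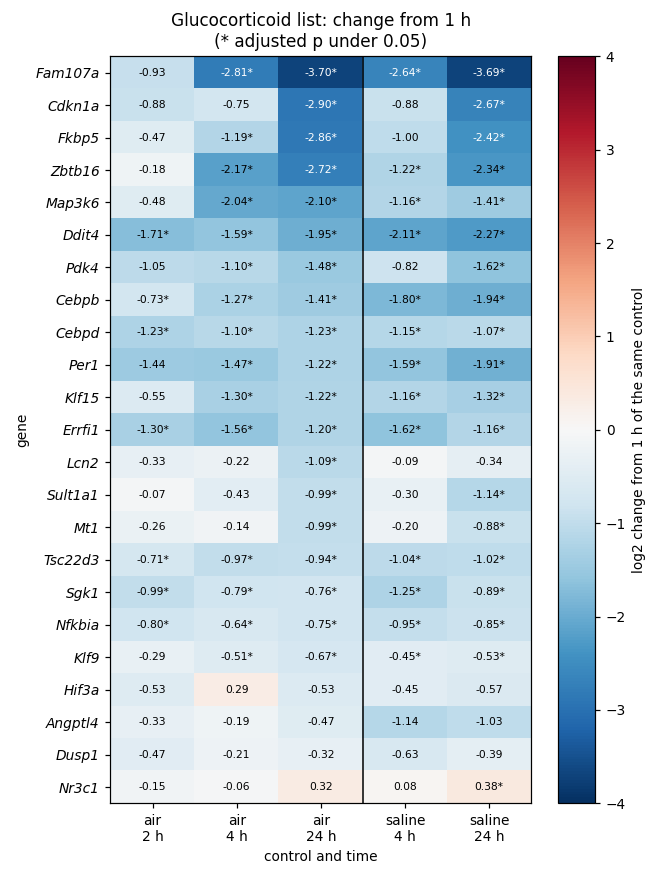
Log2 change of the 23 measured glucocorticoid-responsive genes from the 1 h hearts of the same route, for air at 2, 4 and 24 h and for saline at 4 and 24 h, with a star where the adjusted p is under 0.05. Most cells at 4 and 24 h are negative in both routes, with 15 and 19 air genes and 13 and 18 saline genes called lower.

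The promoters of 4 of these genes are shown because they hold the inverted repeat known for the glucocorticoid receptor and the genes differ in when they fell. The pattern searched was GNACA followed by TGTNC with 3 bases between, which reads the same on both strands, from 250 bases before to 50 after each start site in RefSeq promoters of build GRCm38.p6. It was found in 4 of the 19 list members that matched a promoter and in 145 of 27025 genes (0.537%). The bases before the start are printed on the gene's strand, with the match in capitals: Fam107a at chr14:8309780-8310029 (minus strand), Map3k6 at chr4:133240568-133240817 (plus), Sgk1 at chr10:21993640-21993889 (plus) and Mt1 at chr8:94178839-94179088 (plus).
Fam107a: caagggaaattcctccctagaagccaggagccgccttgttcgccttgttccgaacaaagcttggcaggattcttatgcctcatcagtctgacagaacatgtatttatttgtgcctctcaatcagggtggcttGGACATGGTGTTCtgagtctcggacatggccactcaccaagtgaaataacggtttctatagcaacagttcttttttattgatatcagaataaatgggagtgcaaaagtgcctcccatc
Map3k6: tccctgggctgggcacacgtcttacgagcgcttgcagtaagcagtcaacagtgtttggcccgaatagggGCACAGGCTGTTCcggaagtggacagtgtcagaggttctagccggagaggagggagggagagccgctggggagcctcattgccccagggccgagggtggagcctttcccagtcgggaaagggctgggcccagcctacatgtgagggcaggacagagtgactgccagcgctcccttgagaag
Sgk1: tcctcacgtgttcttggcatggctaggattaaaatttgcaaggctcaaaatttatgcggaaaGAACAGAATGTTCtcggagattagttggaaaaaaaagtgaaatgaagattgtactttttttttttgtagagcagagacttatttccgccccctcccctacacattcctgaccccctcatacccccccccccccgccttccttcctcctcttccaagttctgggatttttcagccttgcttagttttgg
Mt1: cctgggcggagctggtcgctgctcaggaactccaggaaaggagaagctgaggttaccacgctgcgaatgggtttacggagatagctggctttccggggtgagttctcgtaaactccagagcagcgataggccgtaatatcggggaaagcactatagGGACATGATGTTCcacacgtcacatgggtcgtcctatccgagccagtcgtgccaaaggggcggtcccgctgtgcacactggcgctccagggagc
The matches began 118, 181, 188 and 94 bases before the start. Sgk1 fell by 2 h, Fam107a and Map3k6 mostly between 2 and 4 h, and Mt1 between 4 and 24 h. The first step rests on Sgk1 alone, whose call was lost in 3 of 28 alternatives. The last rests on Mt1 alone, whose other probe set hardly changed in that step. A match is a run of letters and not a measured binding site, and a promoter window without it says nothing about more distant sites.

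Saline hearts, which share no mice with the air hearts, showed falls in the same list. Of 23 genes, 13 fell at saline 4 h against 1 h and 18 fell and 1 rose at saline 24 h against 1 h. Over all genes in saline, 0.724% rose and 2.41% fell at 4 h, and 3.63% rose and 7.17% fell at 24 h. At 24 h against 1 h Fam107a changed by −3.70 in air and −3.69 in saline, Fkbp5 by −2.86 in air and −2.42 in saline, and Zbtb16 by −2.72 in air and −2.34 in saline. No member of the list passed the test of the difference between air and saline at 4 h or 24 h, with median differences of 0.06 and 0.03. These values do not show that the routes act alike, since the standard errors of the differences were 0.48 for Fam107a, 0.40 for Fkbp5 and 0.44 for Zbtb16.

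Genes listed as responsive to insulin or to FOXO transcription factors also fell. Of 19 measured members, 7 fell at 4 h and 12 fell at 24 h against 1 h, none rose, and the median changes were −0.41 and −0.58. Over all genes 5.43% and 7.61% fell. Ddit4 and Klf15 also belong to the glucocorticoid list. Foxo3, one of the FOXO factors, was at 8.61, 8.20, 8.48 and 7.97 at 24 h and at 9.25, 9.47, 9.51 and 9.20 at 1 h. The groups did not overlap, with a 2.06-fold fall (−1.04 ± 0.15, adjusted p = 3.13e-06) and a median change of −0.75 in the other 2 probe sets. Gabarapl1, which serves autophagy, fell by 0.96 and Fbxo32, a muscle ubiquitin ligase, by 0.58 at 24 h against 1 h, the second lost without replicate 3 at 1 h or replicate 1 or 2 at 24 h. Sesn1 fell by 0.91, Pik3r1 by 0.68 and Txnip by 0.65, but their other probe sets changed by −0.20, 0.24 and 0.16. The call of Txnip was lost without replicate 2 or 4 at 1 h or replicate 1 or 4 at 24 h. Of 21 measured genes of fasting and fatty acid use under PPAR alpha, 3 fell at 4 h against 1 h, where 5.43% of all genes fell. At 24 h against 1 h 1 rose and 2 fell, near the all-gene shares of 5.02% and 7.61%.

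Some genes outside these lists fell in the same steps. Rasgef1b, an exchange factor for Ras-like proteins, was at 6.52, 7.40, 6.75 and 6.91 at 1 h, at 4.95, 5.63, 5.29 and 5.85 at 2 h, at 5.54, 5.34, 4.92 and 4.52 at 4 h and at 5.21, 4.87, 5.22 and 5.17 at 24 h. All 12 later arrays lay below the 1 h arrays and overlapped one another, with a 2.76-fold fall at 2 h against 1 h (−1.46 ± 0.20, adjusted p = 1.78e-05). Rgcc, a cell cycle regulator, fell 2.28-fold in that step (adjusted p = 0.000302) and Gem, a small GTPase that inhibits calcium channels, 2.60-fold (adjusted p = 0.00609). Noct, a phosphatase and clock-linked gene, was at 9.63, 9.19, 8.81 and 9.48 at 1 h, at 8.75, 9.54, 9.13 and 9.69 at 2 h, at 7.82, 7.74, 7.96 and 7.73 at 4 h and at 8.07, 8.73, 7.69 and 7.79 at 24 h. The 4 and 24 h hearts lay below both earlier times, with a 2.76-fold fall at 4 h against 2 h (−1.46 ± 0.24, adjusted p = 0.000213).

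Immediate early genes, which respond to a stimulus within minutes, mostly fell where they were called. Of 29 measured, 5 fell at 4 h against 1 h, where 5.43% of all genes fell. At 24 h against 1 h 1 rose and 6 fell, where 5.02% of all genes rose and 7.61% fell. Nr4a1, an orphan nuclear receptor, was at 8.44, 8.53, 8.87 and 9.02 at 1 h, at 6.80, 6.85, 7.07 and 7.50 at 2 h, at 6.45, 7.31, 6.05 and 6.13 at 4 h and at 7.79, 7.51, 6.28 and 8.09 at 24 h. All later arrays lay below the 1 h arrays, with a 4.69-fold fall at 4 h (−2.23 ± 0.43, adjusted p = 0.000467) and a 2.46-fold fall at 24 h (adjusted p = 0.0306), the second lost without replicate 2, 3 or 4 at 1 h or replicate 3 at 24 h. Maff, a small Maf factor, fell 3.64-fold at 4 h and 4.48-fold at 24 h against 1 h (adjusted p = 2.42e-08 at 24 h). Fos was at 6.97 to 7.35 at 1 h and at 4.90 to 6.66 in the 12 later arrays, without overlap, but its changes of −1.17 at 4 h (adjusted p = 0.229) and −0.94 at 24 h (adjusted p = 0.32) did not pass the test. Egr1, a zinc finger factor, moved the other way, at 8.54, 8.63, 8.02 and 8.49 at 24 h and at 7.78, 6.81, 6.92 and 6.79 at 1 h. It rose 2.54-fold (adjusted p = 0.0173), which was lost without replicate 2 at 1 h (adjusted p = 0.0576) or replicate 4 at 1 h (adjusted p = 0.0514).

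Of 14 measured temperature-responsive genes, 2 fell at 4 h against 1 h, where 5.43% of all genes fell. By 24 h 1 rose and 5 fell against 1 h, where 5.02% of all genes rose and 7.61% fell. Hspa1b, an inducible Hsp70 chaperone, was at 8.44, 8.40, 9.71 and 7.46 at 1 h, at 7.59, 8.26, 5.68 and 7.18 at 2 h, at 6.51, 5.67, 5.68 and 6.18 at 4 h and at 5.98, 7.61, 5.44 and 6.59 at 24 h. The 4 h hearts lay below the 1 h hearts, while 2 and 24 h overlapped both. Its fall at 4 h against 1 h was 5.65-fold (−2.50 ± 0.69, adjusted p = 0.0149), with an adjusted p of 0.0683 without replicate 3 at 1 h and 0.0501 in a fit of the 32 inhalation arrays alone. Dnajb1, its co-chaperone, fell 2.20-fold at 4 h (adjusted p = 0.00385; −0.57 in its other probe set). Its fall at 24 h (adjusted p = 0.0482) was not called in 17 of 28 alternatives. The cold-inducible genes Cirbp (0.34 at 24 h against 1 h, adjusted p = 0.291) and Rbm3 (−0.28, adjusted p = 0.234) were not called.

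Clock genes were called at some of the later times. Of 13 measured core clock genes, 2 fell at 4 h against 1 h (Csnk1d and Per1) and 3 fell at 24 h against 1 h (these and Csnk1e), against 5.43% and 7.61% of all genes. Csnk1e lost its call without replicate 2 at 1 h, and Nr1d1 was not measured. The other probe sets of Csnk1d changed by 0.34 at 4 h. Dbp, a clock output factor that peaks in the day in many tissues, was at 5.43, 6.30, 7.14 and 5.94 at 1 h, at 7.42, 7.90, 7.82 and 7.24 at 2 h, at 9.11, 8.68, 7.68 and 8.00 at 4 h and at 7.45, 6.66, 9.02 and 8.65 at 24 h. The 4 h hearts were above all 1 h hearts and the 24 h hearts spanned a wide range, with replicates 3 and 4 high and replicate 2 within the 1 h range. Dbp rose 4.49-fold at 4 h against 1 h (2.17 ± 0.53, adjusted p = 0.00619) and 3.35-fold at 24 h against 1 h (adjusted p = 0.019). The second call was lost without replicate 1 at 1 h (adjusted p = 0.0732), replicate 3 at 24 h (0.109) or replicate 4 at 24 h (0.0765).

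Arntl, the core activator also called Bmal1, was at 7.48, 6.93, 6.33 and 7.03 at 1 h, at 7.34, 6.72, 6.64 and 6.61 at 2 h, at 5.47, 6.59, 7.03 and 6.85 at 4 h and at 6.72, 6.74, 5.56 and 5.81 at 24 h. All 4 times overlapped, and its change of −0.73 at 24 h against 1 h was not called (adjusted p = 0.259). The lowest Arntl levels were in replicate 1 at 4 h and replicates 3 and 4 at 24 h, and these held 3 of the 4 highest levels of Dbp, the other being replicate 2 at 4 h. Per3, a period gene, was highest in replicates 1 and 2 at 4 h (7.14 and 6.60) and replicates 3 and 4 at 24 h (6.67 and 6.76), against 5.03 to 6.06 in the other 12 arrays, and was not called.

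**Figure D3:**
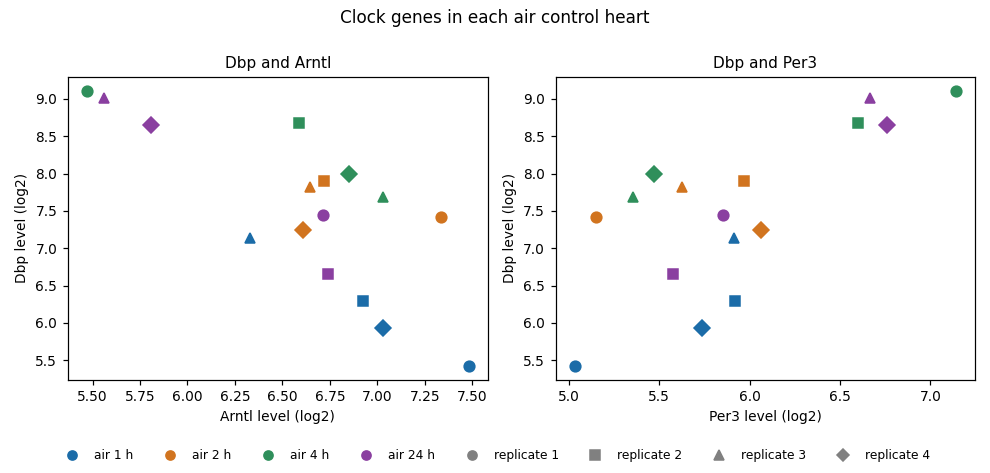
Deposited log2 level of Dbp against Arntl and against Per3 in the 16 air hearts, with colour for the time and shape for the replicate number. Hearts of one time are spread widely, with replicates 3 and 4 at 24 h high in Dbp (9.02 and 8.65) and low in Arntl (5.56 and 5.81).

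Per1, which both the clock and glucocorticoids drive, was at 6.51, 7.28, 6.88 and 7.31 at 1 h, at 5.10, 5.71, 5.69 and 5.71 at 2 h, at 6.80, 6.28, 4.48 and 4.52 at 4 h and at 6.07, 5.53, 5.74 and 5.74 at 24 h. The 2 and 24 h hearts lay below the 1 h hearts, while replicate 1 at 4 h lay within their range. It fell 2.78-fold at 4 h (−1.47 ± 0.39, adjusted p = 0.0112), lost without replicate 3 (adjusted p = 0.0841) or replicate 4 (adjusted p = 0.0806) at 4 h, and 2.33-fold at 24 h (adjusted p = 0.026), lost without replicate 2 or 4 at 1 h or replicate 2, 3 or 4 at 24 h. Nfil3, a repressor that opposes Dbp, fell 2.61-fold at 4 h against 1 h (−1.39 ± 0.27, adjusted p = 0.000493). Of 17 measured clock output genes, 2 rose and 5 fell at 4 h, where 2.36% of all genes rose and 5.43% fell. At 24 h against 1 h 2 rose and 6 fell, where 5.02% of all genes rose and 7.61% fell. Klf9, Klf15 and Tsc22d3, which fell at both, belong to the glucocorticoid list as well. The Per1 promoter at chr11:69098699-69098948 (plus strand, GRCm38.p6) is shown for its E-box, the letters CACGTG bound by Arntl and Clock, in capitals and found in 8.09% of genes.
Per1: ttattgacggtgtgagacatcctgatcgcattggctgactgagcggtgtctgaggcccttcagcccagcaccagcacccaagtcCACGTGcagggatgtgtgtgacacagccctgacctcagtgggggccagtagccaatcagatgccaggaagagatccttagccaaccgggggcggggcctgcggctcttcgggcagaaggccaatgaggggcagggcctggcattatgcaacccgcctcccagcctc

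Some enzymes of fatty acid synthesis rose between 4 and 24 h. Of 14 measured lipid synthesis genes, 3 rose and none fell at 24 h against 4 h, with a median change of 0.65, where 0.667% of all genes rose. Against 1 h, 3 rose and 2 fell at 24 h, where 5.02% of all genes rose and 7.61% fell, and the rises of Acaca and Acly lost their calls there without replicate 3 or 4 at 24 h, that of Acaca also without replicate 1, 2 or 4 at 1 h. The 2 that fell were Acacb, an acetyl-CoA carboxylase of mitochondria (−0.58, adjusted p = 0.000921), and Gpam, which starts glycerolipid synthesis (−0.47, adjusted p = 0.0146). The other probe set of Gpam changed by 0.25, and its call was lost without replicate 2 at 1 h or replicate 1 at 24 h. Fasn, the fatty acid synthase, was at 6.83, 5.58, 8.32 and 6.97 at 1 h, at 6.16, 6.34, 7.91 and 6.56 at 2 h, at 6.88, 6.45, 6.78 and 6.17 at 4 h and at 8.72, 8.06, 10.39 and 10.09 at 24 h. The 24 h hearts lay above the 4 h hearts and overlapped 1 h, where replicate 3 was at 8.32. It rose 6.71-fold at 24 h against 4 h (2.75 ± 0.62, adjusted p = 0.0121). Acaca, which makes malonyl-CoA, was at 6.40, 6.66, 8.43 and 8.57 at 24 h and at 5.66, 4.98, 5.47 and 4.89 at 4 h, without overlap, and rose 4.80-fold (adjusted p = 0.00704). Acly, which makes cytosolic acetyl-CoA, was at 8.92, 8.79, 10.75 and 10.96 at 24 h and at 8.56, 8.80, 8.01 and 8.43 at 4 h, overlapping by 1 array, and rose 2.65-fold (adjusted p = 0.0306). The call of Acly was lost without any single 4 h array.

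Replicates 3 and 4 at 24 h held the highest value of Fasn, Acaca and Acly and of Slc25a1, the mitochondrial citrate carrier (7.67, 7.68, 9.56 and 9.66 at 24 h). Without replicate 3 or without replicate 4 at 24 h no member of the list was called against 4 h, the adjusted p of Fasn being 0.074 and 0.0572 and that of Acaca 0.0559 and 0.0535. Scd1, the stearoyl-CoA desaturase, was at 9.44, 9.36, 11.32 and 12.05 at 24 h, and its change of 1.56 against 4 h was not called (adjusted p = 0.172). The brown fat gene Ucp1 was at 8.62, 8.38, 10.41 and 10.88 at 24 h, high in the same 2 arrays, and at 9.25, 8.78, 8.28 and 8.65 at 4 h. It also ranged from 4.55 to 9.23 at 2 h, and the part of adhering fat in the lipid results was not tested. Of 6 brown fat markers, the summed level was 13.02 to 13.37 at 24 h and 13.00 to 13.19 at 4 h. At 2 h it was 12.87 to 13.05, where Ucp1 varied widely. The sum follows its brightest members and not Ucp1, so it does not measure adhering fat.

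**Figure D4:**
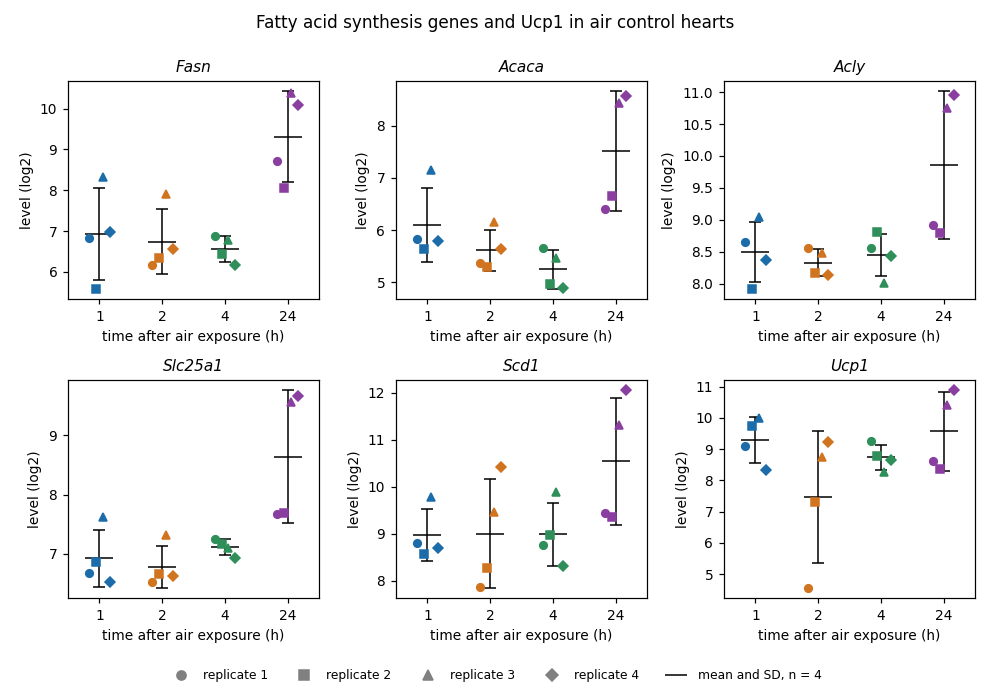
Deposited log2 level of Fasn, Acaca, Acly, Slc25a1, Scd1 and Ucp1 in each air heart at 1, 2, 4 and 24 h, with the bar the mean and its SD (n = 4). Replicates 3 and 4 at 24 h hold the 2 highest values in each panel, for Fasn 10.39 and 10.09.

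Other genes were called at 24 h, or at 2 h against 1 h. Tfrc, the transferrin receptor that takes up iron, was at 9.78, 8.59, 10.29 and 10.49 at 1 h, at 9.98, 10.03, 11.07 and 9.44 at 2 h, at 9.89, 9.61, 9.59 and 9.27 at 4 h and at 11.54, 11.50, 11.24 and 11.28 at 24 h. The 24 h hearts were above every other array, and the rise against 4 h was 3.48-fold (1.80 ± 0.36, adjusted p = 0.00373). Itgb6, an integrin chain, was at 6.63, 6.76, 6.70 and 6.92 at 24 h and at 4.11 to 5.40 in the other 12 arrays, a 4.12-fold rise against 4 h (adjusted p = 0.000869). Prox1, a transcription factor of heart muscle and lymphatics, rose 2.88-fold (adjusted p = 1.54e-05) and Angpt1, a vessel-stabilising ligand, 3.07-fold (adjusted p = 8.69e-06) at 24 h against 1 h. The sodium-calcium exchanger Slc8a1 rose 5.14-fold, but its other probe set changed by 0.19 on the log2 scale.

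Falls seen at 24 h alone included Cnksr1, a scaffold of Ras signalling, at 4.01, 4.37, 4.15 and 4.27 at 24 h and at 5.19 to 6.32 in the 12 earlier arrays. It fell 3.10-fold against 4 h (−1.63 ± 0.28, adjusted p = 0.000487). Cd163, the haptoglobin scavenger receptor of macrophages, was at 5.66, 5.57, 5.49 and 5.31 at 24 h and at 6.20 to 7.34 before, and fell 2.31-fold against 4 h (adjusted p = 0.00549). The summed level of the 10 macrophage markers was 11.53 to 12.07 at 24 h and 11.71 to 12.24 at 4 h. Gpihbp1, which carries lipoprotein lipase across capillary walls, fell 2.24-fold at 24 h against 1 h (−1.16 ± 0.14, adjusted p = 2.35e-08), at 8.89, 9.13, 8.66 and 8.68 at 24 h and at 10.08, 10.16, 9.94 and 9.81 at 1 h. Its 4 h arrays lay between these, at 9.42 to 9.62, so that its fall was not seen at 24 h alone.

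Ebf1, a transcription factor of B cells, fat and mesenchymal cells, dipped at 2 h, with 7.48, 7.38, 7.33 and 7.30 at 1 h, 6.18, 6.54, 6.58 and 6.05 at 2 h, 7.89, 7.71, 7.75 and 7.77 at 4 h and 7.24, 7.03, 7.47 and 7.44 at 24 h. The 2 h hearts lay below all others, with a 2.05-fold fall against 1 h (adjusted p = 0.000562) and a 2.72-fold rise at 4 h against 2 h (1.44 ± 0.17, adjusted p = 3.97e-07). The median over its other probe sets was −0.62 and 1.20 for these changes. The summed fibroblast markers were also lowest at 2 h, at 13.23 to 13.30 against 13.31 to 13.50 at the other times. The summed endothelial markers were at 12.76 to 12.92 at 2 h and at 12.96 to 13.29 otherwise. Such a sum follows its brightest members. At 2 h against 1 h the median change was −0.14 over 7 fibroblast markers and 0.10 over 8 endothelial markers. None of these markers was called in that step. Their part in the dip of Ebf1 was not tested. Rrad, a small GTPase that restrains cardiac calcium channels, was at 10.07, 10.20, 10.05 and 10.29 at 2 h and at 9.79, 8.39, 8.72 and 8.99 at 1 h, without overlap. It rose 2.27-fold (1.18 ± 0.23, adjusted p = 0.0051), a call lost without replicate 2 at 1 h (adjusted p = 0.0519). The transcription factors Irx3, which rose 1.81-fold, and Irx5, which rose 1.79-fold, were called at 2 h against 1 h. Irx3 lost its call without replicate 3 or 4 of either time and Irx5 without replicate 1, 3 or 4 at 1 h or replicate 3 or 4 at 2 h.

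**Figure D5:**
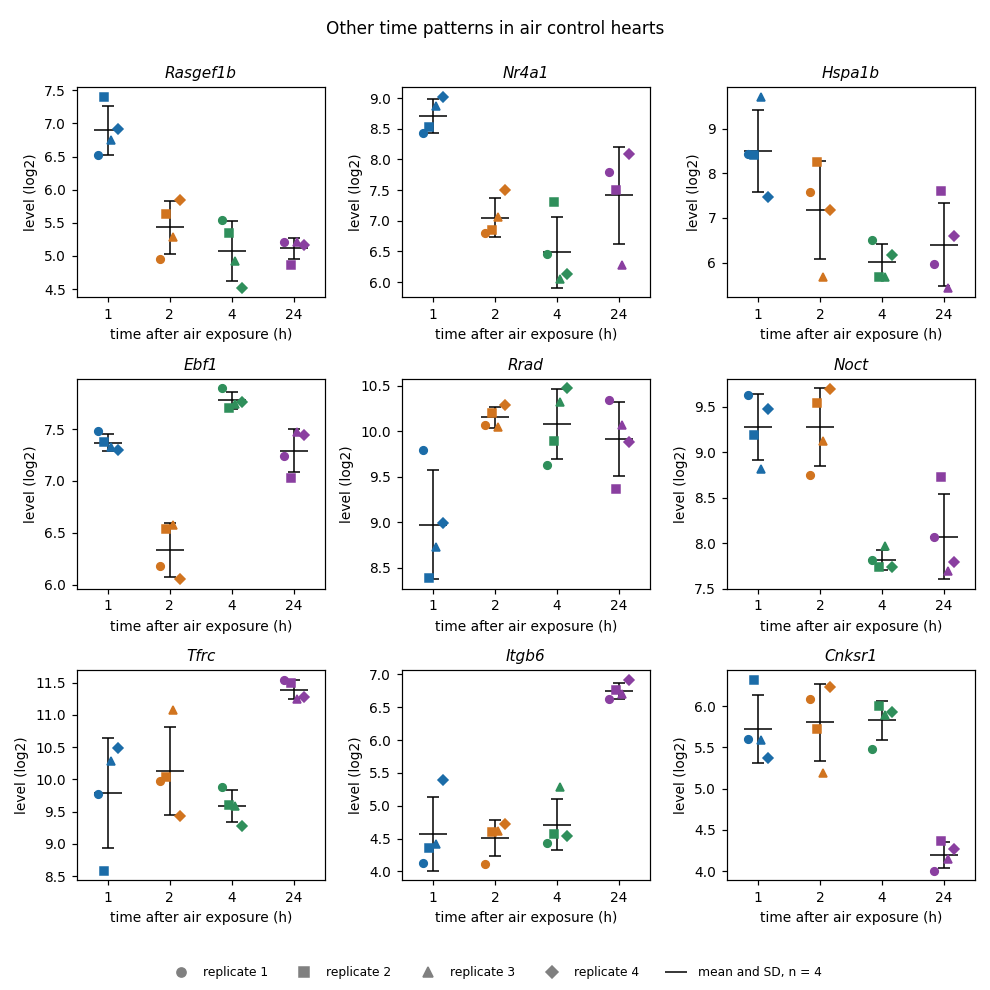
Deposited log2 level of Rasgef1b, Nr4a1, Hspa1b, Ebf1, Rrad, Noct, Tfrc, Itgb6 and Cnksr1 in each air heart at 1, 2, 4 and 24 h, with the bar the mean and its SD (n = 4). Rasgef1b and Nr4a1 are highest at 1 h, Ebf1 is lowest at 2 h, and Tfrc and Itgb6 are highest and Cnksr1 lowest at 24 h.

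Few genes of energy metabolism were called, and the called rises in ion handling depended on the fit or on the probe set. Of 27 measured respiratory chain genes, none was called at 4 h against 1 h. By 24 h 2 of them rose and 1 fell against 1 h, with a median change of −0.01, near the shares of 5.02% and 7.61% over all genes. No gene of the 15 measured for the citric acid cycle was called in either comparison. Of 15 measured ion channel and calcium genes, 4 rose and 1 fell at 24 h against 1 h, where 5.02% of all genes rose and 7.61% fell. Slc8a1 was among the rises, but its other probe set changed far less. The one that fell, Kcna5, a potassium channel that repolarises heart cells, was at 4.97, 4.61, 7.28 and 6.36 at 24 h and at 8.66, 8.35, 8.42 and 8.00 at 1 h. The groups did not overlap and the fall was 5.86-fold (−2.55 ± 0.53, adjusted p = 0.00049). Gja1, the main gap junction protein, rose by 0.36 and Casq2, the calcium store protein, by 0.29. In a fit of the 16 air arrays alone their adjusted p was 0.0571 and 0.0847. Without single arrays Gja1 also lost its call (replicate 2 or 3 at 1 h, replicate 1 at 24 h), as did Casq2 (replicate 2 at 1 h, replicate 3 or 4 at 24 h). Kcnh2, a potassium channel that rose by 0.35, was not called in 10 of 28 alternatives, among them without replicate 1, 2 or 3 at 1 h and without replicate 1, 3 or 4 at 24 h. The natriuretic peptides that mark wall stress were not called, with changes of 0.06 for Nppa (adjusted p = 0.673) and −0.09 for Nppb (adjusted p = 0.838).

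Neutrophil transcripts were lowest at 24 h. Of 5 measured markers, 3 fell at 24 h against 1 h, namely S100a8, S100a9 and Camp, where 7.61% of all genes fell. S100a8 was at 3.66, 3.35, 3.05 and 3.20 at 24 h and at 7.60, 4.72, 3.97 and 4.71 at 1 h, without overlap but with replicate 1 at 1 h far above the rest. Its fall of 1.94 (adjusted p = 0.00888) was 1.15 without that array (adjusted p = 0.127), that of S100a9 was 1.22 (adjusted p = 0.1) and that of Camp 0.27 (adjusted p = 0.58). The same array carried Rag1, and the summed neutrophil level was 5.85 to 6.19 at 24 h against 6.47 to 9.78 at 1 h. The 24 h levels of S100a8 lay near the brightness limit for testing (3.23), so the size of its fall is imprecise.

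The difference between routes was tested directly as the change from 1 h in air minus that in saline. At 4 h 0.378% of genes were higher and 0.547% lower in air, and at 24 h 0.217% were higher and 0.0885% lower. Among all probe sets 340 and 163 were called, and leaving out 1 array gave 96 (without replicate 2 at saline 4 h) to 536 (without replicate 3 at saline 4 h) at 4 h. At 24 h it gave 55 (without replicate 3 at air 24 h) to 204. Of the other arrays, replicates 1 and 3 at saline 1 h, replicate 1 at saline 4 h, replicate 4 at air 1 h and replicates 2, 3 and 4 at air 4 h lowered the 4 h count by over 1.5 times. Replicates 1, 3 and 4 at saline 1 h, 1 and 2 at saline 24 h, 4 at air 1 h and 1 at air 24 h did so at 24 h. Fads2, a desaturase of polyunsaturated fatty acids, was at 3.96, 4.01, 4.03 and 3.99 at 1 h, at 4.04, 3.80, 3.98 and 3.94 at 2 h, at 4.47, 4.19, 4.83 and 5.02 at 4 h and at 4.93, 4.78, 5.10 and 4.74 at 24 h. The 4 and 24 h hearts lay above all earlier ones. Its change at 24 h was 0.89 in air and −0.15 in saline, a difference of 1.04 ± 0.20 (adjusted p = 0.00429), and its other probe set differed by 0.43. B3galt2, a galactosyltransferase, rose by 1.60 in air and changed by 0.26 in saline at 24 h (difference 1.34, adjusted p = 0.027), a call lost without replicate 1 or 2 of either saline time, replicate 2 at air 1 h or replicate 3 or 4 at air 24 h. Nr4a1 fell by 1.30 in air and by 3.39 in saline at 24 h, and the difference of 2.10 was not called (adjusted p = 0.0826).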

How the data were processed

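RNA from mouse hearts, extracted with RNeasy Plus Mini kits, was labelled from 100 ng by 3' IVT and hybridised to the arrays, per the labels. The values are log2 signals per probe set, deposited by the authors already normalized. The submitters' processing notes name MAS5, with neither its version nor its use, and scan dates are not stated in the sources used here. By their distributions of values, the injection and inhalation arrays appear to have been normalized as 2 sets, so changes were compared only within a route.

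Of 45141 probe sets, 104 are controls, 28898 carry 1 symbol, 551 several and 15588 none. Probe sets with a group mean above the median of all group means (3.23) were tested. In R 4.3.3, limma 3.58.1 fitted a mean for each of 18 groups over 69 arrays (51 residual and 5.53 prior degrees of freedom, eBayes with an intensity trend). Files were loaded through data.table, version 1.17.8. Contrasts were two-sided, adjusted by Benjamini-Hochberg within each contrast over all probe sets and called at 0.05. The air and saline contrasts share this fit, whose spread also draws on the cyanide groups.

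Members and the 41 gene lists (25 pathways and 16 sets of cell type markers) were chosen with earlier results of these data known, so their counts are descriptions. Named genes were taken from the 12 largest rises and falls per contrast without overlap, the 20 of lowest F p, all clock genes, up to 4 members of each other list, a set of 36 genes, and the 8 largest differences from saline in each direction. Casq2, Dusp1, Fbxo32, Foxo3, Gabarapl1, Gpam, Hif3a, Kcnh2, Nr3c1 and Txnip, from the lists, fall outside this rule. They were chosen after their values were seen. Where a gene has several probe sets, the others' median is given where it disagrees. The p-values measure the spread between arrays, and the number of arrays limits the precision. The procedure was tested on simulated data. The alternatives tried were other normalizations, filters, fits and covariates, a replicate block and each array left out.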

Additional observations from a re-analysis of the deposited data

Results flagged for a closer look

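Among 65 genes and 260 groups of 4 arrays, 20 groups had 1 array far from the other 3 by Dixon's criterion, and chance flags about 1 in 20 groups. In the 1 h hearts these were Cdkn1a in replicate 3 (9.584), Lcn2 in replicate 2 (6.585), Fbxo32 in replicate 3 (9.459), Egr1 in replicate 1 (7.782), Acaca in replicate 3 (7.16) and Scgb1a1 in replicate 4 (5.334). In the 2 h hearts they were Per1 (5.101), Egr1 (7.924), Arntl (7.335), Rag1 (9.866) and Scgb1a1 (2.671) in replicate 1, Slc25a1 (7.309) and Prox1 (5.956) in replicate 3, and Irx3 in replicate 4 (9.329). In the 4 h hearts they were Tsc22d3 in replicate 4 (9.303) and Itgb6 in replicate 3 (5.285). In the 24 h hearts they were Rasgef1b (4.868) and Hlf (6.695) in replicate 2, Fos in replicate 3 (5.17) and Scgb1a1 in replicate 1 (3.102).

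Some genes changed differently in air and in saline by the test of the difference, given here as log2 change from 1 h in air minus that in saline. At 4 h the difference was −1.3 for Cep162, −1.16 for Urb1, −1.08 for Gpt2, −1.05 for Il6ra, −1.03 for Duxbl1, −1.01 for Tmem116, −0.98 for Bcs1l and −0.98 for Slc46a3. It was 1.0 for Bahcc1, 1.0 for Cd82, 1.02 for Ormdl3, 1.02 for Tspan15, 1.06 for Abtb2, 1.07 for Vasp, 1.43 for Fli1 and 1.97 for 4932431P20Rik. The other probe sets of Gpt2 and Il6ra differed by −0.21 and 0.22. At 24 h it was −0.88 for 2310009B15Rik, −0.83 for Insyn2a, −0.65 for Mrpl46, −0.61 for Tpbpb, −0.61 for 1700066B19Rik, −0.54 for Med31, −0.52 for Txnl1 and −0.46 for U2af1. It was 0.93 for S1pr1, 1.04 for Fads2, 1.07 for Pold2, 1.1 for Cyp20a1, 1.15 for G6pd2, 1.18 for Ppara, 1.23 for Lgals9 and 1.34 for B3galt2. The other probe sets of Ppara had a median difference of 0.05. Several of these differences depended on the fit. Of 37 alternatives, Abtb2 was not called in 22, Lgals9 in 22, Il6ra in 19, S1pr1 in 17 and Ppara in 12, and Vasp in 5, Fli1 in 1 and Gpt2 in 1. Of 36, B3galt2 was not called in 8 and Fads2 in 6 at 4 h and 0 at 24 h.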

How the results depend on the processing

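Counts below are called probe sets. With a minimum change of 1.5-fold, 2357 were called by the F test, 205 at 4 h against 2 h, 206 at 24 h against 4 h, 1072 at 4 h against 1 h and 1899 at 24 h against 1 h. With 1 probe set per gene, which tests fewer features, these were 1890, 313, 153, 908 and 1470, with 77 at 2 h against 1 h and 76 and 19 for air against saline at 4 h and 24 h. At 2 h against 1 h, 73 were called with no filter and 206 with the actin ratio as a covariate. A stricter filter gave 78 for air against saline at 24 h. Leaving out both arrays with thymocyte transcripts, chosen after seeing the data, gave 46 at 2 h against 1 h, 3 glucocorticoid genes lower in that step, and 105 for air against saline at 24 h. Apart from these smaller designs, the cause was not tested.

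Leaving out 1 array gave 3451 to 4577 by the F test (4482 with all), 30 to 136 at 2 h against 1 h, 277 to 560 at 4 h against 2 h, 130 to 406 at 24 h against 4 h, 1348 to 2400 at 4 h against 1 h, 2618 to 4002 at 24 h against 1 h, and 96 to 536 and 55 to 204 for air against saline at 4 h and 24 h. Glucocorticoid genes lower numbered 3 to 7, 13 to 15 and 17 to 19 at 2, 4 and 24 h against 1 h. Of 158 gene results, 92 kept their call in every alternative, 66 lost it in 1 or more and 0 changed sign.

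Deviations of same-numbered arrays of different times correlated at −0.255 to 0.363 (24 pairs, median 0.054). Those of other numbers correlated at −0.318 to 0.357 (72 pairs, median −0.014), and 7 of 16 arrays correlated best with their own number. These overlapping ranges do not settle whether a replicate number pairs arrays. The replicate block gave 4655 by the F test, 120 at 2 h against 1 h, 590 at 4 h against 2 h and 364 at 24 h against 4 h, with 7, 15 and 19 glucocorticoid genes lower. Dim levels such as those of Fads2, of S100a8 at 24 h and of Map3k6 at 4 h lie near the filter. There the signal over background limits the precision.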
